A study of Mus musculus with 2 samples.

Results

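Nuclei of hippocampal oligodendrocytes that carried transcripts of *Il33* and *Opalin* were described in single-nucleus RNA sequencing (snRNA-seq) of PS19 and PZKO mice. They were chosen by thresholds on unique molecular identifiers (UMIs), the molecular tags that count single transcripts. Per 10000 UMIs a nucleus needed at least 20 UMIs of *St18*, *Prr5l*, *Mog* and *Mag* together, under 5 of the microglial genes *Inpp5d*, *Csf1r* and *Dock8*, and under 15 of the astrocyte genes *Gpc5* and *Rfx4*. It also needed at least 2 raw UMIs of *Il33* and *Opalin* together, and more of them than of *Anln*, *Hapln2*, *Piezo2* and *Enpp6* together. Of 20594 nuclei that passed the quality filter, 5059 met the oligodendrocyte thresholds, and 3026 of those formed the Il33/Opalin group (1587 of 2690 in PS19 and 1439 of 2369 in PZKO). A further 1404 nuclei with at least 2 UMIs of *Anln*, *Hapln2*, *Piezo2* and *Enpp6*, and more of these than of *Il33* and *Opalin*, are called the Anln group, and 629 met neither rule.

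Mature oligodendrocytes wrap axons in myelin, and in the mouse brain they form a continuum of states that is described by the genes they express beside the shared myelin genes. *Il33* encodes interleukin-33, a cytokine of the IL-1 family that is stored in the nucleus and released from damaged cells, and oligodendrocytes and astrocytes are among its sources in the brain. *Opalin* encodes a transmembrane glycoprotein of central myelin. *Anln*, *Hapln2* and *Piezo2* mark other mature oligodendrocytes, while *Enpp6* marks newly formed ones.

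PS19 mice carry a human tau transgene with the P301S mutation under the *Prnp* promoter, and PZKO mice are PS19 mice that lack *Zbp1*, the sensor of Z-form nucleic acids. Hippocampi of 9-month-old males were pooled, 5 per genotype, into 1 library each, although the methods also state that animals were processed separately, and no label of the animal is carried in the counts. Both libraries carry the tau transgene, so no comparison with mice free of tau pathology is possible. Each genotype is a single library, so genotypes were set side by side without replicates or a test, and 95% intervals (exact binomial, Clopper-Pearson, for shares and for the split of a gene's UMIs between libraries) cover counting error only.

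The stretches directly before the start sites of *Il33* and *Opalin*, the genes that define the group, are shown because the 2 genes were detected together in most members. Both genes lie on chromosome 19 of mm10, *Il33* (ENSMUSG00000024810) from 29925114 to 29960718 on the plus strand and *Opalin* (ENSMUSG00000050121) from 41061710 to 41077113 on the minus strand. The 250 bases upstream of each start are from RefSeq (GRCm38.p6), 5′ to 3′ on the strand of the gene, with motif matches in capitals.
*Il33* first start site, chr19:29924863-29925112, plus strand: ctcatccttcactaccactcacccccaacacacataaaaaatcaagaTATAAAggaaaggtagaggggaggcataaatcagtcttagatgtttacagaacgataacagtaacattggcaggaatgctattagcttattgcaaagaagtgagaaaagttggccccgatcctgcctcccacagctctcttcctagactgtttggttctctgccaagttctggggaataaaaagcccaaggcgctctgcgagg
*Il33* second start site, chr19:29945540-29945789, plus strand: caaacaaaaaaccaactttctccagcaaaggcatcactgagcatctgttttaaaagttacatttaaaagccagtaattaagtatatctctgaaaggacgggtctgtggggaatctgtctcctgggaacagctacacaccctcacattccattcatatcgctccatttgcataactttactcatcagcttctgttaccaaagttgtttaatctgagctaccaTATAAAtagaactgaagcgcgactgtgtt
*Opalin*, chr19:41077114-41077363, minus strand: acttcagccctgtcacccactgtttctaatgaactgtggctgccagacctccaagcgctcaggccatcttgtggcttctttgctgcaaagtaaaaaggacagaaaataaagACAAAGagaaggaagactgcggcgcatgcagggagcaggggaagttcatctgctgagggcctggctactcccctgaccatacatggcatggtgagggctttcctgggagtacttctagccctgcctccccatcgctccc
The search covered both strands for ACAAAG (the core bound by SOX factors, such as the oligodendrocyte factor SOX10), CAGCTG (an E-box) and TATAAA (the TATA box). TATAAA stood 203 bases before the first and 29 bases before the second *Il33* start, ACAAAG stood 139 bases before the *Opalin* start, and CAGCTG was in none of the 3 stretches. Of 32851 promoter stretches of the same length, 16.5% hold ACAAAG, 13.0% CAGCTG and 12.4% TATAAA, and these matches describe letters only.

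The members were deeper in PZKO than in PS19. The group held 6318832 UMIs in PS19, with a median of 3478 UMIs and 1703 genes per nucleus, and 7482372 UMIs in PZKO, with a median of 4500 UMIs and 1970 genes, 1.29 times the PS19 depth per nucleus. Mitochondrial UMIs had a median of 0.725% in PS19 and 0.489% in PZKO. Of all barcodes, 47 occurred in both libraries, and 1 of them was a member in both. In each library 7 members had a barcode that also occurred in the other library.

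Since the rule is a threshold, the group was cut from a range of counts, and whether it is a distinct cell type was not tested. Exactly 2 UMIs of *Il33* and *Opalin* were held by 147 PS19 members (9.26%) and 114 PZKO members (7.92%), and 192 (12.1%) and 164 (11.4%) were ahead of the other gene set by 1 UMI. Just outside the threshold, 86 PS19 and 68 PZKO nuclei held 1 UMI of *Il33* or *Opalin* and none of the other set, and 121 and 103 nuclei held equal numbers of at least 2 UMIs. The median member held 6 UMIs of *Il33* and *Opalin* in PS19 and 7 in PZKO. Most members carried both genes, 1225 (77.2%) in PS19 and 1154 (80.2%) in PZKO, while 297 (18.7%) and 219 (15.2%) carried *Il33* alone and 65 (4.10%) and 66 (4.59%) *Opalin* alone. *Il33* had more UMIs than *Opalin* in 70.1% of PS19 and 67.3% of PZKO members, and *Opalin* had more in 18.9% and 22.8%.

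**Figure D1:**
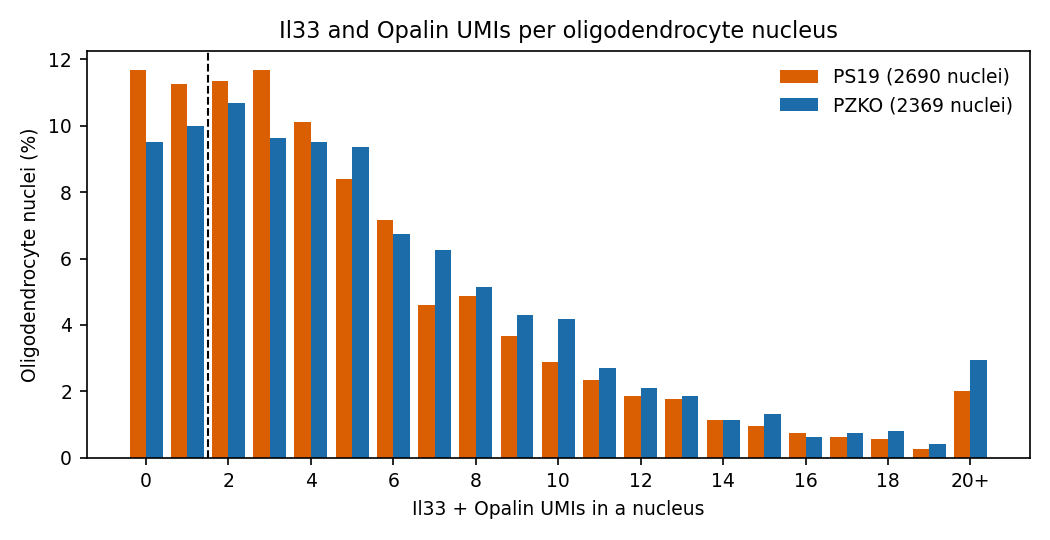
Percent of oligodendrocyte nuclei (vertical axis) by the number of *Il33* and *Opalin* UMIs in a nucleus (horizontal axis, the last bars pool 20 or more), for 2690 PS19 and 2369 PZKO nuclei. The dashed line marks the threshold of 2 UMIs, and no gap separates the 303 PS19 and 237 PZKO nuclei at 1 UMI from the 305 and 253 nuclei at 2 UMIs.

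The share of oligodendrocyte nuclei in the Il33/Opalin group was 59.0% in PS19 (95% interval 57.1 to 60.9) and 60.7% in PZKO (58.7 to 62.7), a difference of 1.75 percentage points (−0.959 to 4.45). Because the rule counts raw UMIs, every nucleus with at least 2000 UMIs was also thinned to 2000 UMIs before the rule was applied. The thinned shares were 51.2% in PS19 (1169 of 2281 nuclei, 49.2 to 53.3) and 49.0% in PZKO (1062 of 2167 nuclei, 46.9 to 51.1), a difference of −2.24 points (−5.18 to 0.697). Both of these intervals hold 0, and the difference had opposite signs with and without thinning, which also left out 398 PS19 and 171 PZKO oligodendrocyte nuclei under 2000 UMIs. Of these, 191 in PS19 and 80 in PZKO were members before thinning, and of the deeper members 79.0% in PS19 and 73.2% in PZKO kept the membership. Under a stricter filter on nuclei (1000 UMIs, 500 genes and at most 1% mitochondrial UMIs) the shares were 56.8% in PS19 and 61.9% in PZKO. The difference thus also depended on which nuclei were counted. For the stricter filter no interval was calculated, so whether it would hold 0 is not given. Of all nuclei that passed the filter, members were 15.2% in PS19 and 14.2% in PZKO, a difference of −0.955 points (−1.92 to 0.0115). After thinning they were 12.5% and 11.2%, a difference of −1.24 points (−2.17 to −0.321), an interval that does not hold 0.

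Levels of the defining genes follow as a description, since these values chose the members. *Il33* had 8313 UMIs in PS19 members (1316 CPM, a scale on which 100 CPM is 1 UMI per 10000 UMIs of the group) and 7937 UMIs in PZKO members (1061 CPM), a log2 ratio of PZKO over PS19 of −0.31. *Opalin* had 3360 UMIs (532 CPM) in PS19 and 3803 UMIs (508 CPM) in PZKO, a log2 ratio of −0.07. The threshold counts raw UMIs and met deeper nuclei in PZKO, so nothing is read from these ratios. Over all 5059 oligodendrocyte nuclei, where neither gene was used for the choice, *Il33* was at 923 CPM in PS19 and 770 CPM in PZKO (−0.26, −0.30 to −0.22) and *Opalin* at 381 and 383 CPM (0.01, −0.05 to 0.07). In the median member, *Il33* stood at 12.2 UMIs per 10000 in PS19 and 9.92 in PZKO, and *Opalin* at 4.87 and 4.86.

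Of the genes that excluded nuclei, *Anln* was at 180 CPM in PS19 members and 198 CPM in PZKO members, against 826 and 746 CPM in the Anln group. *Hapln2*, which encodes a link protein of the matrix at nodes of Ranvier, was at 167 and 162 CPM in members and at 438 and 404 CPM in the Anln group. *Enpp6*, a phosphodiesterase of newly formed oligodendrocytes, was at 33.6 and 28.5 CPM against 358 and 355 CPM. No UMI of *Anln*, *Hapln2*, *Piezo2* or *Enpp6* was found in 493 PS19 members (31.1%) and 377 PZKO members (26.2%). The genes of the oligodendrocyte threshold were alike in both groups, with *Mog*, a myelin surface glycoprotein, at 827 and 769 CPM in members and at 845 and 787 CPM in the Anln group.

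**Figure D2:**
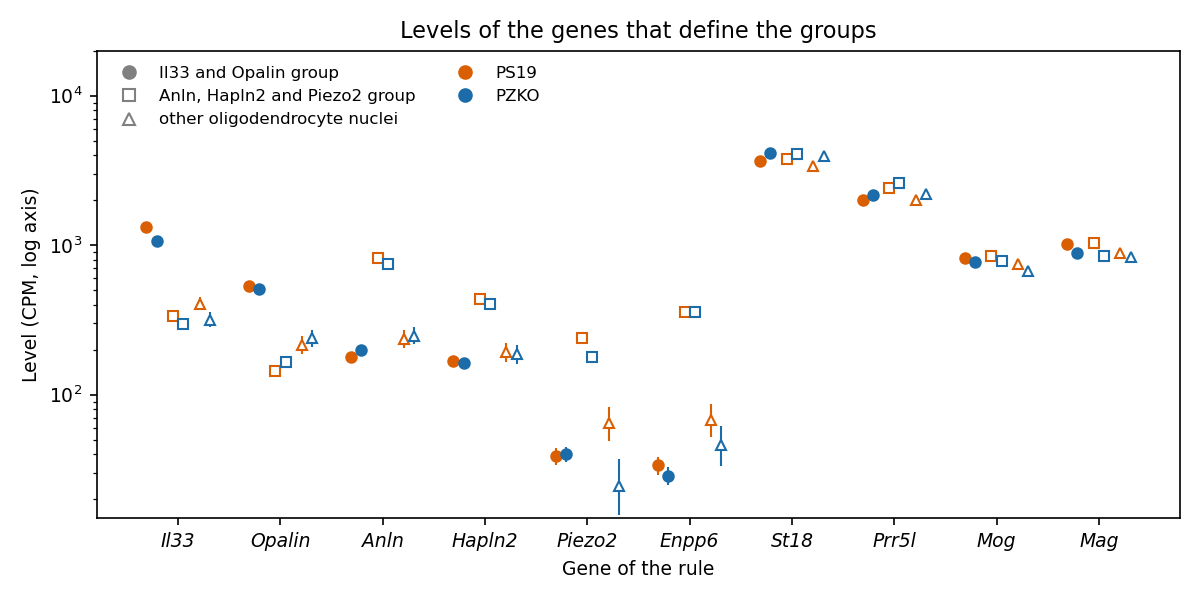
Levels (CPM, log axis) of the 10 genes used to define the groups, in the Il33/Opalin group (filled circles), the Anln group (squares) and other oligodendrocyte nuclei (triangles) of PS19 (orange) and PZKO (blue), with 95% intervals for counting error. *Il33* and *Opalin* are highest in the group chosen for them, at 1316 and 1061 CPM for *Il33*, while *St18*, *Prr5l*, *Mog* and *Mag* lie close together in all groups.

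RNA released from broken cells can put UMIs into nuclei that do not express a gene, so the detection of each gene was set beside nuclei that should lack it, at 2000 UMIs per nucleus. Microglia and neurons were taken by thresholds on their own genes, and nuclei with any UMI of *St18*, *Prr5l*, *Mog* or *Mag* were left out. Stray oligodendrocyte RNA in microglia and neurons can thus be undercounted. Before thinning, microglia and neurons had medians of 3494.5 and 19593 UMIs in PS19 and 4338 and 28628 UMIs in PZKO. Members had medians of 3619 UMIs in PS19 and 4484.5 UMIs in PZKO. Members were chosen at this depth by UMIs of *Il33* and *Opalin*, so their detection of these genes follows from the rule. *Il33* was detected in 93.3% of PS19 and 91.9% of PZKO members (95.9% and 95.4% without thinning). It was detected in 43.1% and 43.5% of the Anln group, 5.17% and 2.44% of microglia and 1.62% and 0.790% of neurons. *Opalin* was detected in 71.3% and 71.2% of members, 4.50% and 2.63% of microglia and 0.550% and 0.621% of neurons. *Il33* was thus detected more often in the Anln group than in microglia and neurons of the same library, which were chosen to lack oligodendrocyte genes. *Ptgds*, which encodes prostaglandin D2 synthase, was detected in 83.2% and 72.4% of members, but also in 46.3% and 33.8% of microglia.

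The labelled cell type was checked against marker lists. All 15 oligodendrocyte markers were detected, with a sum of 24534 CPM in PS19 members and 22873 CPM in PZKO members, where *Mbp* was the most abundant at 4942 CPM. The median member held 253 UMIs of these markers per 10000 in PS19 and 244 in PZKO. Precursor markers were all 7 detected, led by *Lhfpl3*, with sums of 225 and 314 CPM in members against 909 and 1338 CPM in the Anln group, where *Tnr* led at 500 and 767 CPM. Their median over members was 0.

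Markers of other cells were present at lower levels, and several differed between the libraries. All 9 microglial markers were detected, with a sum of 188 CPM in PS19 members (led by *C1qa* at 61.4 CPM) and 109 CPM in PZKO members, a log2 ratio of −0.79 (−0.92 to −0.66), and a median over members of 0. The 8 astrocyte markers, all detected and led by *Slc1a2*, summed to 752 and 710 CPM with medians of 5.96 and 5.95 UMIs per 10000. The 9 excitatory neuron markers, all detected and led by *Syt1*, summed to 1329 and 1354 CPM with medians of 9.29 and 9.19. The libraries were thus alike in astrocyte and excitatory markers and apart in microglial ones.

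The other lists were sparse in the median member, where their medians were 0 in PZKO. All 8 inhibitory neuron markers were detected, with 279 CPM in PS19 and 549 CPM in PZKO (log2 ratio 0.98, 0.89 to 1.06), most of it *Adarb2* at 167 and 423 CPM. Of the *Adarb2* UMIs, 64.8% in PS19 and 77.8% in PZKO lay in 10 nuclei, and its log2 ratio was 1.34 in members and 0.63 in the reduced group. All 5 choroid plexus markers were detected, with 779 CPM in PS19 and 89.7 CPM in PZKO (−3.12), nearly all *Ttr*, and a PS19 median of 7.49 UMIs per 10000. The 5 endothelial markers, all detected, summed to 50.8 CPM (led by *Flt1*) and 75.2 CPM (led by *Mecom*), and the 5 pericyte and mural markers, all detected, to 38.9 CPM (led by *Rgs5*) and 20.6 CPM (led by *Vtn*). Fibroblast markers, 5 of 5 detected and led by *Dcn*, summed to 6.17 and 13.2 CPM, and ependymal markers, 5 of 5 detected and led by *Foxj1* and *Cfap299*, to 28.0 and 26.1 CPM. The part of other cells' RNA in the differences below was not tested. As a check, members that Scrublet marked as doublets and members with at least 5 UMIs of *Slc17a7*, *Snap25*, *Syt1* and *Rbfox3* per 10000 were removed, which left 884 PS19 members (55.7%) and 779 PZKO members (54.1%), called the reduced group.

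Within each library, members and the Anln group shared most of their transcriptome. These groups were cut by the rule, so the values describe them and no test was made. Of 9046 genes with enough UMIs, 137 were higher in members by 1.5-fold or more in both libraries (1.51%) and 236 were lower (2.61%). In the reduced group 120 of 6769 genes were higher (1.77%) and 170 were lower (2.51%).

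*Kirrel3*, a cell adhesion molecule of the immunoglobulin family, was at 3231 CPM in PS19 members and 3771 CPM in PZKO members, against 738 and 975 CPM in the Anln group, log2 ratios of members over the Anln group of 2.13 and 1.95. *Ephb2*, an ephrin receptor, had ratios of 2.49 in PS19 and 1.78 in PZKO, and *Srgap1*, a GTPase activator of the Slit-Robo pathway, of 1.43 and 1.13. *Kit*, the receptor of stem cell factor, was at 102 and 87.5 CPM in members against 15.9 and 25.8 CPM, ratios of 2.68 and 1.76. *Synpr*, known as a synaptic vesicle protein, was at 224 and 284 CPM against 73.1 and 60.7 CPM. Each of these genes was above 1.5-fold in both libraries, and also in the reduced group, where *Kirrel3* had ratios of 2.49 and 2.08 and *Synpr* of 2.38 and 2.22. The noncoding transcript *7630403G23Rik* (2.50 and 2.38), *Gm5087* (2.34 and 2.10), *Vangl1* of planar cell polarity (1.55 and 1.59), the Ras GTPase activator *Rasal1* (1.44 and 1.60), the mannosidase *Man1a* (1.39 and 1.64), *Hmgcll1* (1.95 and 1.38) and the GABA receptor subunit *Gabrr2* (1.83 and 1.38) complete the 12 highest.

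The genes lowest in members included genes of precursors and newly formed oligodendrocytes. The rule used *Enpp6*, a gene of newly formed oligodendrocytes, to place nuclei in the Anln group. The direction for such genes is thus not independent of the rule. *Tnr*, which encodes tenascin-R, was at 48.0 CPM in PS19 members and 74.4 CPM in PZKO members against 500 and 767 CPM in the Anln group, ratios of −3.38 and −3.36. *Sox6*, a transcription factor of precursors, had ratios of −2.66 and −3.10, and *Itpr2*, a calcium channel found in differentiating oligodendrocytes, of −2.11 and −2.86. In the reduced group *Tnr* in the Anln group was at 64.3 CPM in PS19 but 1043 CPM in PZKO, and *Sox6* at 14.3 and 278 CPM, so the size of these differences depended on which Anln nuclei were counted. *A530053G22Rik* had ratios of −3.64 and −3.99, and −3.91 and −3.78 in the reduced group. The ether lipid enzyme *Agmo* (−2.11 and −2.05), *Plin3* of lipid droplets (−2.22 and −2.12), *Gm32005* (−2.53 and −2.98), *A330072L02Rik* (−4.13 and −2.64), the semaphorin *Sema5a* (−1.96 and −2.13), *Ppfibp1* (−2.53 and −3.02), *Frmd4a* (−2.18 and −2.07) and *9630013A20Rik* (−4.11 and −2.41) complete the 12 lowest. For the last 3 of these, and in PS19 alone, the reduced group showed no lower level than its Anln group, with ratios of 0.05 for *Ppfibp1*, 0.06 for *Frmd4a* and 1.99 for *9630013A20Rik*.

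**Figure D3:**
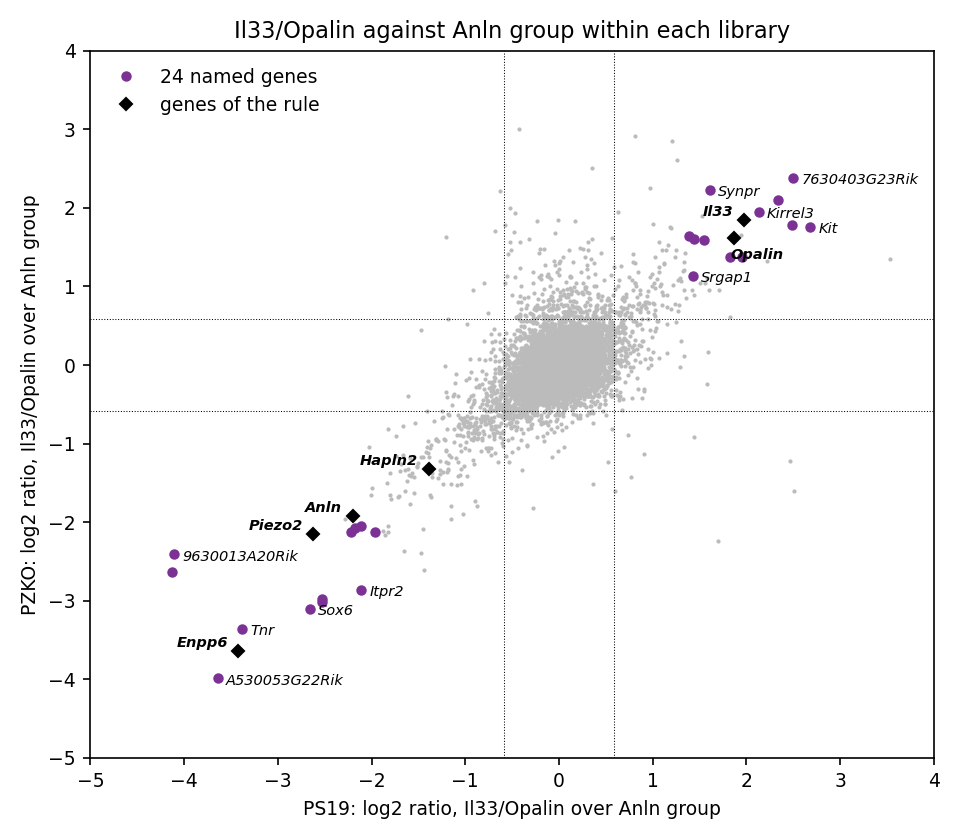
Log2 ratio of the Il33/Opalin group over the Anln group in PS19 (horizontal) and PZKO (vertical) for each gene with enough UMIs (grey), the 24 named genes (purple) and the genes of the rule (black diamonds). Dotted lines mark 1.5-fold. *Kirrel3* (2.13 and 1.95) and *Kit* (2.68 and 1.76) lie at the upper right with *Il33* and *Opalin*, and *Tnr* (−3.38 and −3.36) at the lower left.

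Of the 10 genes linked to *Il33* in mature oligodendrocytes, 5 were higher than in the Anln group in both libraries and 4 lower, 2 and 1 of them by 1.5-fold, with median ratios of 0.06 in PS19 and −0.03 in PZKO. *Ptgds* of this list had ratios of 1.27 and 1.08, and *Apod* of the same list, a lipid carrier, of −0.97 and −0.85. Of other lists, *Erbb4*, a neuregulin receptor, of 0.86 and 0.91, and the noncoding *Pvt1* of 1.29 and 1.11. *Kcnab1*, a potassium channel subunit, was at 590 CPM in PS19 members and 516 CPM in PZKO members against 279 and 258 CPM in the Anln group. *Cdkn1a*, which encodes the cell cycle inhibitor p21, was at 50.8 CPM in PS19 members and 21.1 CPM in PZKO members, with ratios of 2.22 and 1.33. *Klk6*, a secreted protease (−1.58 and −1.41), *S100b*, a calcium-binding protein (−1.29 and −1.44), *Tcf7l2*, a transcription factor of newly formed oligodendrocytes (−1.79 and −1.71), and *Carns1*, the carnosine synthase (−1.59 and −1.18), were lower in members. Of the 22 myelin genes with enough UMIs, 1 was higher by 1.5-fold in both libraries and 0 lower, and the median ratio was −0.05 in PS19 and −0.08 in PZKO, beside 0.01 and −0.01 over all genes. Of the 15 axon-glia adhesion and node genes, 10 were lower and 3 higher in both libraries and 0 passed 1.5-fold, with medians of −0.07 and −0.15. Over all 9046 genes 2922 were higher and 2874 lower in both libraries, and 1.51% and 2.61% passed 1.5-fold.

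Members differed among themselves along the balance of *Il33* and *Opalin*. In the reduced group 629 PS19 and 506 PZKO nuclei had more *Il33* than *Opalin*, and 179 and 188 had more *Opalin*. Of 4943 genes, 26 were higher by 1.5-fold in both libraries in nuclei led by *Il33* (0.526%) and 25 were lower (0.506%). *C4b*, the complement component, was at 554 CPM in PS19 nuclei led by *Il33* and 306 CPM in those led by *Opalin*, and at 313 and 190 CPM in PZKO, log2 ratios of 0.86 and 0.72. *Lbh*, a transcription cofactor, had ratios of 1.42 and 1.04, and *Shroom3*, an actin-binding protein, of 0.85 and 0.93. *C4b* was thus higher beside *Il33* in each library, at a lower level in PZKO. *Neat1* and *mt-Cytb* were also among the 8 highest in nuclei led by *Il33*. *Malat1* was lower in those nuclei (−0.25 in PS19 and −0.13 in PZKO), and the part of RNA quality was not tested. On the other side, *Nckap5* was at 53.3 CPM in nuclei led by *Il33* and 172 CPM in those led by *Opalin* in PS19, and at 88.4 and 248 CPM in PZKO, ratios of −1.69 and −1.49. *Synpr* had ratios of −1.79 and −1.30, *Pcdh7*, a protocadherin, of −1.59 and −1.18, and *Fam214a* of −1.59 and −1.13. *Synpr*, high in members against the Anln group, was thus highest in the members led by *Opalin*. The genes of this comparison were chosen after their values were seen.

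The comparison of PZKO with PS19 within the group asks which transcripts of these oligodendrocytes differed with the loss of *Zbp1* in mice with tau pathology. *Zbp1* itself had 3 UMIs in PS19 members and 1 UMI in PZKO members, too few for a ratio to be read. *Mapt*, the mouse tau gene, was at 1945 and 1951 CPM (log2 ratio 0.00, −0.03 to 0.04), and *Prnp*, whose promoter drives the transgene, at 322 and 252 CPM (−0.35, −0.45 to −0.26). A gene counted as measured where the libraries together held 100 UMIs of it in the group. Of 10201 such genes, 227 were higher in PZKO by 1.5-fold or more (2.23%) and 567 were lower (5.56%), 7.78% in either direction, with a median log2 ratio of −0.03. In the reduced group 8.06% of 7945 genes passed 1.5-fold, 119 higher and 521 lower (6.56%), with a median of −0.02.

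Genes that oligodendrocytes are known to induce in disease were lower in PZKO members. Of 20 such genes with enough UMIs, 18 were lower and 14 lower by 1.5-fold or more, where 5.56% of all genes were, and the median log2 ratio was −0.77 (−0.65 under the stricter filter on nuclei). Mitochondrially encoded transcripts, with a median of −0.70, ribosomal protein transcripts, with a median of −0.53, and *Ttr* (−3.22) were lower in the same members, and their part in these ratios was not tested. The list does not count *Il33*, which is a member of it. *Serpina3n*, a serine protease inhibitor of reactive glia on chromosome 12 from 104406729 to 104414329, was at 100 CPM in PS19 members (633 UMIs) and 33.1 CPM in PZKO members (248 UMIs), a ratio of −1.60 (−1.81 to −1.38). *C4b* (chromosome 17, 34728380 to 34743882) was at 425 and 258 CPM (2688 and 1928 UMIs), a ratio of −0.72 (−0.81 to −0.64). *Klk6* (chromosome 7, 43824499 to 43832030) was at 20.1 and 6.42 CPM (127 and 48 UMIs), a ratio of −1.65 (−2.16 to −1.16). For all 3 genes the interval lay below 0. *Apod* was at 858 and 431 CPM (−0.99), *Apoe*, the lipid carrier, at 896 and 493 CPM (−0.86), *Cd63*, a tetraspanin of late endosomes, at 158 and 74.2 CPM (−1.09), *Cryab*, a small heat shock protein, at 219 and 105 CPM (−1.06) and *Ctsb*, the protease cathepsin B, at 180 and 106 CPM (−0.76). *Fxyd1*, a regulator of the sodium pump, was at 67.7 and 26.1 CPM (−1.38). *Trf*, which encodes transferrin, was at 1601 and 1108 CPM (−0.53), short of 1.5-fold. *Sgk1*, a kinase induced by glucocorticoids, at 170 and 187 CPM (0.13), and *Anxa2*, at 10.3 and 10.7 CPM (0.06), were not lower.

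These ratios were not particular to the group. The median of the disease-associated list was −0.62 in the Anln group, −0.71 in the other oligodendrocyte nuclei and −0.80 over nuclei outside the oligodendrocyte thresholds, and *Serpina3n* had ratios of −1.67 in the Anln group and −1.11 outside. Microglial markers were lower in PZKO members as well (−0.79), and their part in the ratios of genes that microglia also express was not tested. In the reduced group 16 of 17 genes were lower, 13 by 1.5-fold or more (6.56% of all genes), with a median of −0.88, and the ratios were −1.87 for *Serpina3n*, −0.83 for *C4b* and −2.73 for *Klk6*. Between the oligodendrocyte groups the ratios lay apart for *Steap3*, a metalloreductase (−0.65 in members, 0.43 in the Anln group), *H2-K1* (−0.21 and 0.65), *B2m* (−1.04 and −0.32) and the sulfatase *Sulf1* (−0.77 and −1.49), with no test of that difference.

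**Figure D4:**
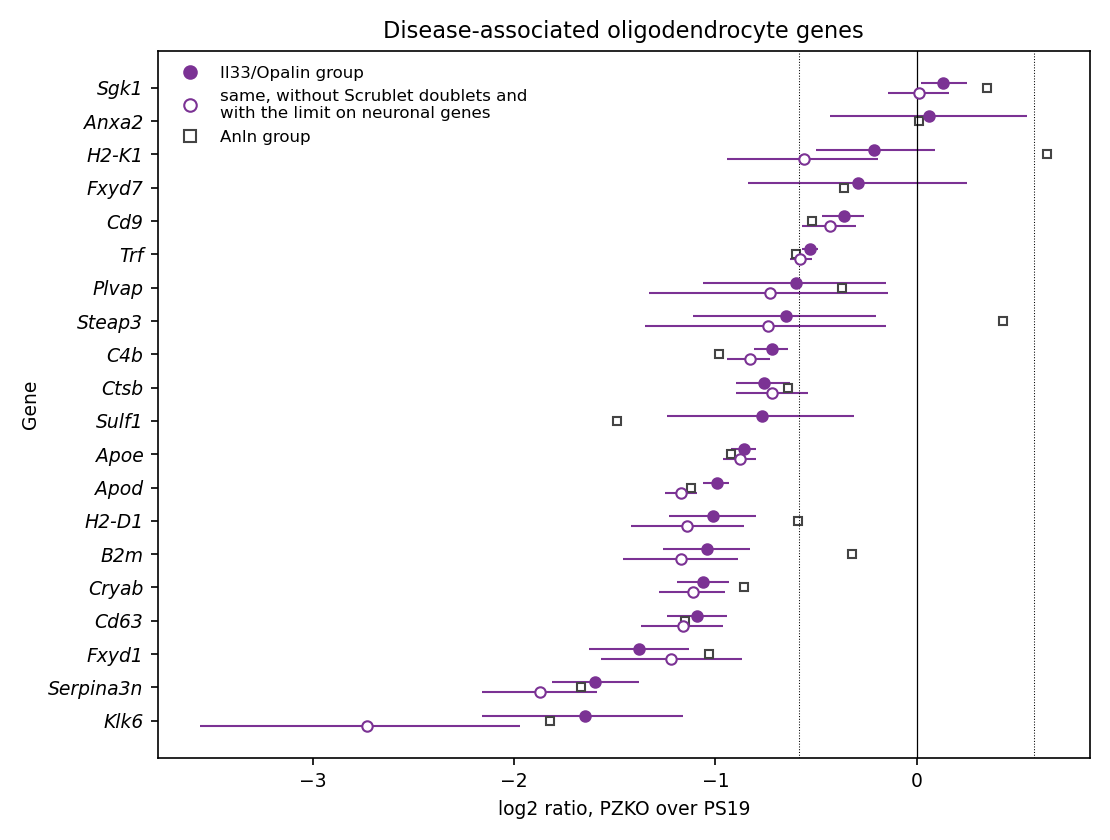
Log2 ratio of PZKO over PS19 (horizontal) for 20 disease-associated oligodendrocyte genes in the Il33/Opalin group (filled circles), in the reduced group (open circles, drawn where it held enough UMIs) and in the Anln group (squares), with 95% intervals for counting error for the circles. Dotted lines mark 1.5-fold; 18 of 20 filled circles lie left of 0, with *Klk6* at −1.65 and *Serpina3n* at −1.60.

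The genes that accompany *Il33* in mature oligodendrocytes were uneven. Of 10 such genes 7 were lower, where 5598 of all 10201 genes were, and 4 were lower by 1.5-fold or more (5.56% of all genes), with a median of −0.37. *Ptgds* (chromosome 2, 25466709 to 25470046) was at 1419 CPM in PS19 members (8964 UMIs) and 764 CPM in PZKO members (5714 UMIs), a ratio of −0.89 (−0.94 to −0.85), and *Fth1*, the ferritin heavy chain, was at 1334 and 846 CPM (−0.66). *Ptgds* was also detected in many microglia, and the part of RNA from elsewhere in its ratio was not tested. *Car2*, carbonic anhydrase 2, was at 1047 and 902 CPM (−0.22), while *Grm3*, a glutamate receptor, was at 1423 and 1610 CPM (0.18) and *Nkain2* at 9398 and 10791 CPM (0.20). Of the 9 genes linked to *Klk6*, 6 were lower and 3 by 1.5-fold or more, with a median of −0.38, among them *Hopx*, a homeobox gene, at 18.0 and 6.82 CPM (−1.40). These 9 included *Anln*, *Hapln2* and *Piezo2*, whose UMIs chose the members, and without them 5 of 6 were lower with a median of −0.66. With them, the median did not keep its direction, at 0.03 under the stricter filter on nuclei and 0.13 after thinning, and it was −0.11 in the reduced group.

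Of 24 myelin genes 18 were lower, beside 5598 of all 10201 genes, 1 by 1.5-fold or more, a share near the 5.56% of all genes, with a median of −0.23. Without *Mog* and *Mag* of the rule, 16 of 22 were lower with a median of −0.28. *Mbp*, the myelin basic protein, was at 4773 CPM in PS19 members and 4942 CPM in PZKO members (0.05, 0.03 to 0.07) and *Mobp* at 1127 and 1278 CPM (0.18). *Cnp* (−0.48), *Mal* (−0.45), *Cldn11* (−0.45) and *Mag* (−0.21) were lower, so genes of myelin proteins differed in sign. *Fa2h*, a hydroxylase of myelin lipids (0.20), and *Gal3st1*, the sulfatide synthase (0.18), were on the side of *Mbp*. The gap junction gene *Gjb1* was the 1 past 1.5-fold, at 62.5 and 40.2 CPM (−0.64).

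The list of oligodendrocyte transcription factors, which also held the enzyme *Carns1* (0.30) and *St18* of the rule (0.17), had 8 of 16 genes lower and 8 higher and a median of −0.01. *Sox10* was at 297 and 275 CPM (−0.11), *Myrf*, the regulator of myelin genes, at 166 and 165 CPM (−0.02), *Zfp536* at 2156 and 2299 CPM (0.09) and *Creb5* at 471 and 536 CPM (0.19). The exception past 1.5-fold (5.56% of all genes) was *Nkx2-2*, at 42.9 and 26.6 CPM (−0.69, −0.96 to −0.42). Genes of cholesterol and fatty acid synthesis were balanced as well, with 14 of 27 higher, 1 lower by 1.5-fold or more and a median of 0.02. *Sc5d*, a late enzyme of cholesterol synthesis, was that gene (39.7 and 24.9 CPM, −0.68), whereas *Hmgcs1*, an early enzyme of the pathway, was at 31.5 and 29.5 CPM (−0.09). *Scd2*, a fatty acid desaturase, was at 615 and 465 CPM (−0.40).

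Heat shock, mitochondrial and ribosomal transcripts were lower in PZKO members, where 5598 of all 10201 genes were lower and 5.56% lower by 1.5-fold or more. All 11 heat shock genes were lower, 10 by 1.5-fold or more, with a median of −0.71, among them *Hsp90ab1* at 437 CPM in PS19 and 264 CPM in PZKO (−0.73), *Hspa8* at 183 and 113 CPM (−0.69) and *Bag3*, a co-chaperone, with 133 and 68 UMIs (−1.21). All 13 mitochondrially encoded genes were lower by 1.5-fold or more, with a median of −0.70, among them *mt-Co1* at 1857 and 1145 CPM (−0.70) and *mt-Cytb* at 1145 and 583 CPM (−0.97). All 81 cytosolic ribosomal protein genes were lower, 23 by 1.5-fold or more, with a median of −0.53. In the reduced group the medians of these lists were −0.78, −0.96 and −0.60. Outside the oligodendrocyte thresholds they were −0.64, −0.77 and −0.53, while in the other oligodendrocyte nuclei they were −0.49, −0.14 and −0.41. Under the stricter filter on nuclei, which itself limits mitochondrial UMIs, the mitochondrial median in members was −0.32, short of 1.5-fold. Mitochondrial RNA lies outside the nucleus, and the part of cytoplasmic RNA left on nuclei was not tested.

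Genes of glycolysis and of metabolic support of axons were lower in 15 of 17 cases, beside 5598 of all 10201 genes, with 5 by 1.5-fold or more (5.56% of all genes) and a median of −0.34 (−0.15 with each nucleus weighted equally). *Ldha*, lactate dehydrogenase A, was at 22.9 and 11.8 CPM (−0.96), *Gapdh* at 175 and 107 CPM (−0.72), *Aldoc* at 53.0 and 33.0 CPM (−0.68) and *Ldhb* at 40.5 and 25.7 CPM (−0.66). *Slc16a1*, the lactate transporter MCT1 through which oligodendrocytes feed axons, was at 29.0 and 21.4 CPM (−0.44, −0.75 to −0.12), short of 1.5-fold, and at a ratio of 0.34 in the Anln group. Of 21 cytoskeletal genes 12 were lower, 3 by 1.5-fold or more, with a median of −0.03, and those 3 were *Tuba1a* (135 and 79.9 CPM, −0.75), *Tubb2a* (37.3 and 22.7 CPM, −0.72) and *Actg1* (131 and 81.5 CPM, −0.68).

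Of all 10201 genes 4603 were higher in PZKO, and the lists of adhesion and receptor genes had larger shares. Of 16 genes of axon-glia adhesion and nodes 13 were higher and 0 passed 1.5-fold, with a median of 0.10, the same as outside the oligodendrocyte thresholds, and of 0.05 under the stricter filter. *Nfasc*, the neurofascin of nodes and paranodes, was at 977 and 1072 CPM (0.13), *Ncam1* at 1414 and 1557 CPM (0.14) and *Cadm1* at 334 and 447 CPM (0.42), while *Cadm4*, which binds axonal cell adhesion molecules, was at 103 and 75.2 CPM (−0.46). Of 16 glutamate receptor genes 13 were higher, 1 by 1.5-fold or more (2.23% of all genes). Their median was 0.19, and it was 0.04 both after thinning and under the stricter filter. *Grm7* was at 787 and 1019 CPM (0.37) and *Gria4* at 348 and 428 CPM (0.30). *Grin3a* was the 1 past 1.5-fold, at 11.9 and 21.4 CPM (0.85), and *Grik2*, at 1323 and 1452 CPM (0.13), had a ratio of −0.00 in the reduced group. In that group 15 glutamate receptor genes were measured and 0 passed 1.5-fold. Of 13 genes of neuregulin and growth factor signalling 10 were higher, with a median of 0.11, and 1 was lower by 1.5-fold or more (5.56% of all genes). *Erbb4* was at 1685 and 2089 CPM (0.31) and *Igf1r* at 210 and 267 CPM (0.35). Neurons express many of these receptors too, and the part of the higher inhibitory neuron markers in PZKO members (0.98) was not tested. *Nrg1*, the gene past 1.5-fold, was at 213 and 138 CPM (−0.63), but 66.9% of its PS19 UMIs lay in 10 nuclei, and its ratio in the reduced group was 1.02. Of 16 genes of gap junctions and ion transport 9 were lower and 7 higher, with a median of −0.05. By 1.5-fold or more, 1 was lower (*Gjb1*, beside 5.56% of all genes) and 1 higher (*Trpm3*, beside 2.23%). *Trpm3* had 73.0% and 75.3% of its UMIs in 10 nuclei. Newly formed oligodendrocyte genes had a median of 0.14 in members and 0.42 in the Anln group. Of these 10 genes 8 were higher in members, 1 by 1.5-fold or more (2.23% of all genes). In the reduced group 7 were measured and 0 passed 1.5-fold. Without *Enpp6*, which the rule used, 8 of 9 were higher, and the medians were 0.15 and 0.43.

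Genes of the IL-33 pathway were measured only in part. *Il1rl1*, which encodes the IL-33 receptor ST2, had 0 UMIs in both libraries, which allows up to 3 UMIs each. *Il1rap*, the accessory chain of the receptor, was at 563 CPM in PS19 and 623 CPM in PZKO (0.15, 0.08 to 0.21), *Map3k7*, the kinase TAK1, at 58.4 and 68.0 CPM (0.22) and *Traf6* at 91.8 and 87.4 CPM (−0.07). Of the 5 measured genes beside *Il33*, 3 were higher, where 4603 of all 10201 genes were, with a median of 0.15. Of these 5 genes 0 passed 1.5-fold, where 2.23% of all genes were higher and 5.56% lower by that size.

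Of the genes downstream of nucleic acid sensing, few reached 100 UMIs. Interferon-stimulated genes had 11 of 24 measured, with 6 higher, 1 by 1.5-fold or more (2.23% of all genes) and a median of 0.05. *Stat2*, a signal transducer of type I interferon, was at 37.8 and 51.1 CPM (0.43). *Oasl2*, the 1 past 1.5-fold, had 22 UMIs in PS19 and 90 in PZKO (1.79, 1.10 to 2.53). In the reduced group 7 genes of this list were measured and 0 passed 1.5-fold. Of 6 necroptosis genes *Ripk1* alone reached 100 UMIs, at 37.0 and 36.0 CPM (−0.04), *Mlkl* had 35 and 51 UMIs and *Ripk3* had 0 in both libraries. Antigen presentation genes were lower in 6 of 7 cases, beside 5598 of all 10201 genes, 3 by 1.5-fold or more (5.56% of all genes), with a median of −0.43 against 0.37 in the Anln group. The median was −0.22 with doublets removed, −0.15 under the stricter filter and −0.75 after thinning, and the part of the lower microglial markers (−0.79) was not tested. Lowest were *B2m* at 80.2 and 38.9 CPM (−1.04) and the class I gene *H2-D1*, at 77.1 and 38.2 CPM (−1.01).

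Stress and glucocorticoid genes were lower in 13 of 16 cases, beside 5598 of all 10201 genes, with 4 by 1.5-fold or more (5.56% of all genes) and a median of −0.14 (−0.04 under the stricter filter). The metallothioneins *Mt1*, at 253 and 105 CPM (−1.27), *Mt2*, at 61.4 and 27.4 CPM (−1.16), and *Mt3*, at 172 and 93.4 CPM (−0.88), were 3 of the 4, and *Cdkn1a* (321 and 158 UMIs, −1.27, −1.55 to −0.99) was the other. *Cdkn1a* had a ratio of −0.38 in the Anln group and −0.49 outside the oligodendrocyte thresholds, a difference that was not tested. *Tsc22d3*, a glucocorticoid target, was higher, at 113 and 154 CPM (0.45), whereas *Fkbp5* was at 57.0 and 52.4 CPM (−0.12). Immediate early genes were lower in 6 of 9, 4 by 1.5-fold or more, with a median of −0.56 in members (−0.28 under the stricter filter, −0.02 without a minimum count) and 0.46 outside the oligodendrocyte thresholds. In the reduced group 2 of them were measured, 2 were lower and 0 passed 1.5-fold. *Jun* was at 45.3 and 28.6 CPM (−0.66), while *Egr1* was at 12.8 and 13.4 CPM (0.06). Nuclear long noncoding RNAs were balanced, with 6 of 12 lower, 2 higher by 1.5-fold or more (2.23% of all genes) and a median of 0.01. The median was −0.20 with the limit on neuronal genes and 0.20 with at least 3 UMIs of *Il33* and *Opalin*. In the reduced group 1 of 9 was higher by 1.5-fold or more. *Malat1* took 10.2% of PS19 UMIs and 8.83% of PZKO UMIs in the group (−0.21), while *Meg3* was at 430 and 648 CPM (0.59) and *Rian* at 43.8 and 73.2 CPM (0.74). Inhibitory neuron markers were higher in PZKO members (0.98), and their part in these ratios was not tested.

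**Figure D5:**
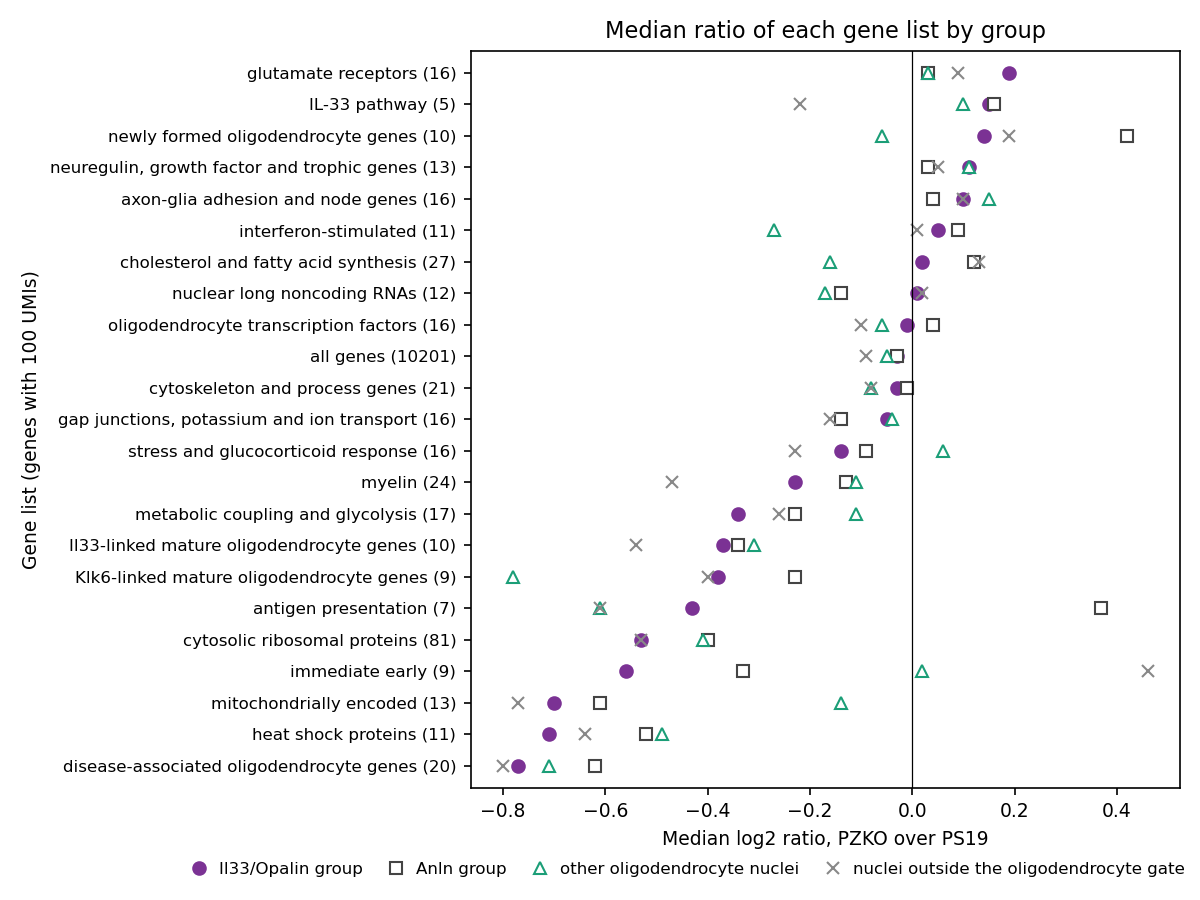
Median log2 ratio of PZKO over PS19 for each gene list with at least 5 genes measured (number in parentheses, *Il33* and *Opalin* left out), in the Il33/Opalin group (filled circles), the Anln group (squares), other oligodendrocyte nuclei (triangles) and nuclei outside the oligodendrocyte thresholds (crosses). The disease-associated (−0.77), heat shock (−0.71) and mitochondrial (−0.70) lists lie lowest in the group, and all genes at −0.03. The transcription factor list includes the enzyme *Carns1*.

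The 12 genes lowest in PZKO members were led by *Ttr*, which encodes transthyretin of the choroid plexus, at 765 CPM in PS19 and 82.3 CPM in PZKO (−3.22). *Ttr* was lower by a like amount in the Anln group (−3.29) and outside the oligodendrocyte thresholds (−2.71). *Serpina3n*, *Klk6*, *Mt1*, *Fxyd1* and *Traf5* were among these 12. *Traf5*, a signalling adaptor of TNF receptors, was at 26.1 and 8.29 CPM (−1.66, −2.10 to −1.23), against −1.02 in the Anln group and −0.55 outside. *Gm11867* (117 and 40.2 CPM, −1.54), *Gm19951* (157 and 67.5 CPM, −1.22), *Vim*, the intermediate filament of glia (55.4 and 22.9 CPM, −1.28), *Lyz2*, the lysozyme of myeloid cells (18.0 and 6.01 CPM, −1.58), and *Ecrg4* (19.1 and 6.42 CPM, −1.58) were also among them. Outside the oligodendrocyte thresholds these 5 genes had ratios of −1.57, −1.40, −1.29, −2.05 and −1.90, in the same order. *Cxcl12*, a chemokine, had 127 UMIs in PS19 and 48 in PZKO (−1.65), but 85.0% and 85.4% of these UMIs lay in 10 nuclei of each library, and its ratio was 0.79 after thinning.

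The 12 genes highest in PZKO members were carried by few nuclei. *Nxph1*, a neurexin ligand of interneurons, had 78 UMIs in PS19 and 521 in PZKO (2.50, 2.15 to 2.86), with 89.4% of the PZKO UMIs in 10 nuclei, and its ratio in the reduced group was −0.17. *Grip1*, a scaffold of glutamate receptors (41.0 and 181 CPM, 2.15), *Reln*, which encodes reelin (8.86 and 44.4 CPM, 2.32), *Kcnmb2* (6.49 and 34.3 CPM, 2.40) and *Col25a1* (11.2 and 49.6 CPM, 2.14) had 79.6%, 82.8%, 93.0% and 82.7% of their PZKO UMIs in 10 nuclei. *Gm45323* (3.29), *Fstl5* (2.66), *Sdk1* (2.35), *9630013A20Rik* (2.34), *C130073E24Rik* (1.93), *Kcnc2* (1.87) and *Sgcz* (1.73) had between 70.8% and 98.4% there. Several turned direction under an alternative. *Grip1* was at −0.27 and *Kcnmb2* at −0.81 with doublets removed, *Reln* at −0.16 and *Gm45323* at −2.16 with the limit on neuronal genes, and *Col25a1* at −0.42 and *9630013A20Rik* at −0.17 after thinning. *C130073E24Rik* was at −0.17 in the reduced group, where *9630013A20Rik* was at 1.58 and *Sgcz* at 1.75, both with intervals above 0. Inhibitory neuron markers were higher in PZKO members as a list (0.98), and their part in these ratios was not tested. *Robo1*, an axon guidance receptor that *Srgap1* acts with, was at 245 and 457 CPM (0.90, 0.81 to 0.98), with 13.7% and 20.3% of its UMIs in 10 nuclei and a ratio of 0.72 in the reduced group.

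Among the genes with the most UMIs in the group were *Malat1*, *Pcdh9*, *Nkain2*, *Pde4b*, *Magi2*, *Slc24a2*, *Ptprd*, *Mbp* and *Gm42418*. Apart from *Malat1* (−0.21), their ratios lay between 0.02 for *Gm42418* and 0.22 for *Slc24a2*, a sodium, calcium and potassium exchanger at 5150 and 5982 CPM. None of these 9 passed 1.5-fold.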

How the data were processed

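The authors deposited raw UMI counts per gene and nucleus of 1 PS19 and 1 PZKO library. The submitters' notes name Cell Ranger 7.0.1, Seurat and mm10, while the headers of both count matrices name Cell Ranger 8.0.1. The SoupX and DoubletFinder steps of the methods are not part of these counts. The libraries held 116488513 and 171167884 UMIs in 11469 and 10920 barcodes. Nuclei were kept from 600 UMIs and 300 genes up and to 5% mitochondrial UMIs, and doublets were not removed from the main values. Scrublet (scanpy 1.11.5) gave the alternative without the 8.37% and 8.11% highest-scoring nuclei, since its automatic threshold marked 589 and 0 nuclei.

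UMIs were summed over nuclei of a group and library and scaled to CPM. Ratios are log2 ratios of CPM, and 1.5-fold (0.58 on the log2 scale) is the size used for counts. Ratios between groups of 1 library were counted where both libraries passed. Scaling by edgeR 4.0.16 TMM and DESeq2 1.42.0 size factors was tried, among other alternatives. Scripts were tested on simulated data. GENCODE M21 gave positions for 32235 of 32285 genes, and both *Il33* and *Opalin* matched the RefSeq promoter table.

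Members, the 23 gene lists and the rule for named genes were chosen with earlier results of these data known. The rule takes the genes of the lists and, per comparison, the 12 highest and 12 lowest measured genes (100 UMIs or more), in the order of the interval bound that lies closer to 0. Genes of nuclei led by *Il33* against *Opalin* and *Robo1* were chosen after their values were seen. A few genes that these rules name are not reported here.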

Additional observations from a re-analysis of the deposited data

Results flagged for a closer look

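Among the 12 genes highest and the 12 lowest in PZKO members, 3 had opposite directions in the Il33/Opalin group and the Anln group. The difference between the groups was not tested. Genes outside these 2 sets did so too, such as *Adarb2* (1.34 and −0.76) and *Trpm3* (1.01 and −0.36). *Cxcl12* had a log2 ratio of PZKO over PS19 of −1.65 in the Il33/Opalin group (127 and 48 UMIs) and of 2.46 in the Anln group (12 and 72 UMIs). *C130073E24Rik* had ratios of 1.93 (103 and 465 UMIs) and −2.47 (46 and 9 UMIs). *Gm45323* had ratios of 3.29 (11 and 127 UMIs) and −1.44 (5 and 2 UMIs). In the Il33/Opalin group, 10 nuclei of each library held most of their UMIs, 85.0% and 85.4% for *Cxcl12*, 89.3% and 94.0% for *C130073E24Rik* and 100% and 98.4% for *Gm45323*. None of the 3 opposite directions held under every alternative. In the Il33/Opalin group *Cxcl12* was at 0.79 after thinning, *Gm45323* at −2.16 with the limit on neuronal genes and *C130073E24Rik* at −0.17 with doublets removed as well.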

How the results depend on the processing

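No paired analysis was possible because each genotype has 1 library, and for the same reason no replicate could be left out. The share of oligodendrocyte nuclei in the group was 51.2% in PS19 and 49.0% in PZKO after thinning, 62.2% and 63.6% with 1 UMI of *Il33* and *Opalin* as the threshold, 53.5% and 55.9% with 3 UMIs, 56.8% and 61.9% under a stricter filter on nuclei, and 15.2% and 14.2% of all nuclei. Genes higher in PZKO were 2.23% of genes tested, but 1.06% after thinning, 3.58% without limits on microglial and astrocyte genes, 15.7% without a minimum count and 4.12% after subtraction of 10% ambient RNA, and genes lower were 5.56%, but 20.1% without a minimum count. Genes higher than in the Anln group were 1.51%, but 2.45% with at least 20 UMIs in each library, 7.09% without a minimum count and 2.59% after ambient subtraction, and genes lower were 2.61%, but 7.26% without a minimum count. Of the genes past 1.5-fold between genotypes, 28.6% were higher in PZKO, against 39.8% with DESeq2 size factors, 37.3% with TMM, 39.3% without the limits on other cell types, 43.9% without a minimum count, 18.3% with the limit on neuronal genes and 18.6% with doublets removed as well. Against the Anln group 36.7% of such genes were higher, and 49.4% without a minimum count.

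Some ratios of PZKO over PS19 changed sign, and the cause was not tested. Those listed next were of genes carried by few nuclei. Ratios near 0 of other genes changed sign too, such as *7630403G23Rik*, at −0.03 in members and 0.20 in the reduced group. With doublets removed *Grip1* was at −0.27 and *Kcnmb2* at −0.81. With the limit on neuronal genes *Grip1* was at −0.28, *Gm45323* at −2.16, *Reln* at −0.16 and *C130073E24Rik* at −0.00. With both, which was chosen after seeing the data, *Gm45323* was at −2.17, *Nxph1* at −0.17, *Reln* at −0.05 and *C130073E24Rik* at −0.17. After thinning *Cxcl12* was at 0.79, *Nxph1* at −0.16, *9630013A20Rik* at −0.17, *Reln* at −0.06 and *Col25a1* at −0.42. Over the Anln group of PS19, *9630013A20Rik* was at 1.11 with doublets removed and 1.99 with both, *Frmd4a* at 0.28 and 0.06, and *Ppfibp1* at 0.05 with both. Of the other single-gene values under the alternatives, 864 stayed within counting error and 215 moved beyond it. Of the values of list medians 281 were close to the reported ones and 70 moved, and the Klk6-linked median changed sign, to 0.03 under the stricter filter and 0.13 after thinning, as did some list medians within 0.05 of 0. The list values without genes of the rule were also chosen after seeing the data. Intervals and floors cover counting error only.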
